A study of Mus musculus with 77 samples.

Results

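Livers of DIO-MASH mice given semaglutide for 24 weeks were compared with livers of DIO-MASH mice given the same drug for 8 weeks, to ask whether liver transcripts went on changing or held steady under continued dosing. The members were taken from the treatment label alone, Semaglutide_24_w (8 livers) and Semaglutide_8_w (7 livers), which gives 15 of the 77 livers of the series. All mice were male C57BL/6JRj. DIO-MASH mice were bought at 5 to 6 weeks of age and ate a diet rich in fat, fructose, sucrose and cholesterol for 34 weeks before dosing began, and those given drug or vehicle stayed on it until they were killed. They carried a biopsy wound of the left lateral lobe made 4 weeks before the first dose and were kept only if that biopsy showed enough steatosis and fibrosis, so that each group is a selected, already diseased one. Semaglutide was injected under the skin once a day at 123 µg per kg. The same span was read in vehicle livers (9 at 8 weeks, 7 at 24 weeks) and in chow reversal livers (7 and 8), in which the diet was changed back to chow at the start of treatment, and 7 chow-fed mice given vehicle for 24 weeks served as healthy controls. Mice of the 24-week groups were 16 weeks older than mice of the 8-week groups and, with drug or vehicle, had eaten the MASH diet for that much longer, so age, time on diet and time on drug cannot be told apart within the semaglutide groups.

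Semaglutide is an agonist of the glucagon-like peptide-1 receptor (GLP-1R), which lowers food intake and body weight and improves glucose control. Steatohepatitis joins 3 processes in 1 organ. Hepatocytes store fat and are injured, resident Kupffer cells are replaced or joined by monocyte-derived macrophages that take up lipid and present antigen, and stellate cells turn into matrix-producing cells that lay down collagen. Plasma cells and B cells also gather in such livers, and hepatocytes secrete acute phase proteins when cytokines reach them. Glp1r itself was too low to be tested, with 13 counts in all in the 7 livers of 8 weeks and 17 in the 8 livers of 24 weeks.

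Library depth was 12487835 to 19384146 counts at 8 weeks and 8883150 to 17661127 at 24 weeks. Replicate 8 of 24 weeks belongs to a second series of library numbers and stood apart, with 4.57% of counts in predicted genes against at most 3.19% in the 74 libraries of the first series. Replicate 2 of 24 weeks stood apart as well, with 2.41% of counts in mitochondrial transcripts, the lowest share of the 77 libraries, and a Pearson correlation of log2 counts with other semaglutide livers as low as 0.903. The labelled tissue was borne out by its markers, with 10 of 10 hepatocyte genes present. Their summed level was 78840 to 110801 CPM (counts scaled to a common library size) at 8 weeks and 67300 to 122359 at 24 weeks. Of 10 exocrine pancreas genes, 6 were listed at 0 in all 15 livers and the others were not. All 10 together summed to 6.58 to 15.7 CPM at 8 weeks and 6.21 to 21.7 CPM at 24 weeks. Fold changes were estimated in 1 edgeR quasi-likelihood fit over all 77 livers, P values were adjusted over the 14904 genes tested, and a gene is said to have risen or fallen where the adjusted P was under 0.05. The labels name separate animals, so P values measure the spread between mice.

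Between 8 and 24 weeks of semaglutide only 2 genes rose (0.0134% of the genes tested) and 0 fell (0%). Both were immunoglobulin genes, Ighm and Igkc. The interval of the fold change excluded a 2-fold change in either direction for 12122 genes (81.3%) and a 1.5-fold change for 7118 (47.8%), and the median size of the log2 fold change was 0.22. Small shifts were nevertheless widespread. At an unadjusted P under 0.05, 2103 genes were higher (14.1%) and 1702 were lower (11.4%), and 1155 genes had an adjusted P under 0.11, so that the count of 2 depends on where the threshold was set. In 31 genes (0.208%) every liver of 24 weeks lay above every liver of 8 weeks, and in 62 (0.416%) every one lay below. DESeq2 called 569 genes, 434 higher and 135 lower.

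These small shifts followed transcript length. The genes were split by transcript length into 4 classes of equal size. In the class of shortest transcripts the median log2 fold change was 0.28, with 1230 genes higher and 54 lower at an unadjusted P under 0.05, whereas in the longest class it was -0.20, with 92 higher and 978 lower. Across 14884 genes with a known length the Spearman correlation of fold change with length was -0.51, and it was -0.32 for vehicle and 0.25 for chow reversal over the same span. These are correlations across genes, which share libraries and are not replicates. The slope of log2 CPM on length was positive in all 7 livers of 8 weeks, from 0.02 to 0.16, and ran from -0.26 to 0.06 in the livers of 24 weeks, lowest in replicates 2 and 8. Once each liver's slope entered the fit, a step chosen after seeing the data, 410 genes were left at an unadjusted P under 0.05 (272 higher and 138 lower) and 4 passed the adjusted threshold, all immunoglobulin genes (Ighm, Igkc, Ighv1-53 and Igkv3-2). DESeq2 with the same term called 24 genes, 18 higher and 6 lower. The part of RNA integrity or library preparation in this trend was not tested. The slopes were computed from the same counts and differed between the 2 groups, with medians of 0.066 at 8 weeks and -0.054 at 24 weeks. The fit with the slope therefore cannot separate the trend from other change between the times, and may take out both. Values from that fit are set beside those of the main fit for many of the genes and lists below. Values given without them are not free of the trend.

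**Figure D1:**
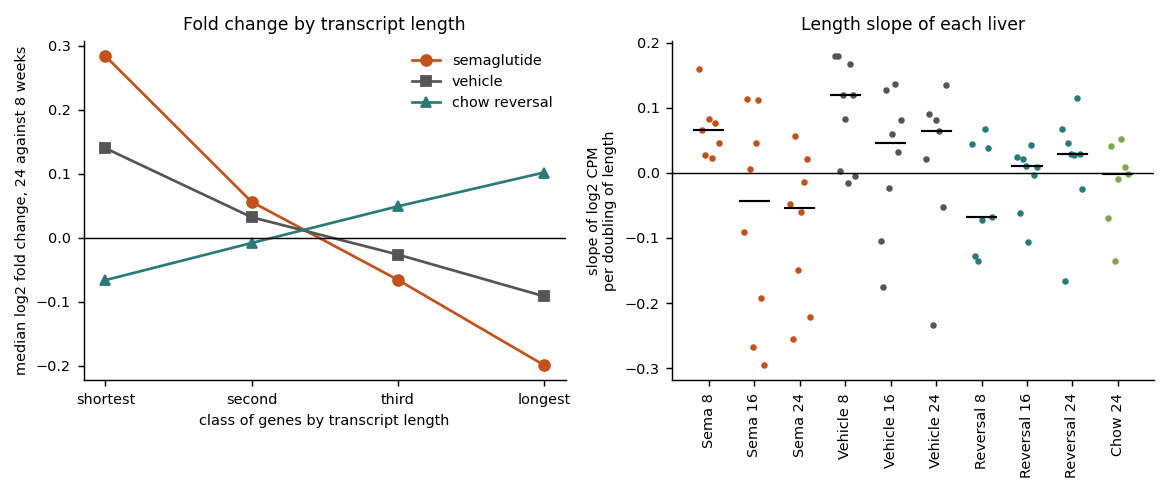
The left plot gives the median log2 fold change, 24 against 8 weeks, of genes in each of 4 classes of transcript length for semaglutide, vehicle and chow reversal, and the right plot gives the slope of log2 CPM on log2 transcript length in each liver (points) with the group median (line). Semaglutide runs from 0.28 in the shortest class to -0.20 in the longest, and all 7 livers of 8 weeks of semaglutide have a slope above 0.

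Ighm encodes the heavy chain constant region of immunoglobulin M and lies at chr12:113418558-113422730 on the minus strand (GRCm38, ENSMUSG00000076617). Its level at 8 weeks was 12.1 to 24.8 CPM, with a median of 19.7. At 24 weeks it was 16.1 to 363 CPM, with a median of 42.3, and 6 of 8 livers lay above all livers of 8 weeks. Replicates 2 and 3 stood far above the others, at 122 and 363 CPM. The log2 fold change was 2.16 ± 0.40 (SE, n = 8 and 7, adjusted P = 0.00919 by edgeR). The middle time lay between, at 15.8 to 56.8 CPM with a median of 30.2. In bulk tissue, more cells of a type and more RNA per cell cannot be told apart.

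Igkc encodes the constant region of the kappa light chain and lies at chr6:70726435-70726966 on the plus strand (ENSMUSG00000076609). It rose by 2.22 ± 0.42 on the log2 scale (n = 8 and 7, edgeR adjusted P = 0.00919), from 7.63 to 20.9 CPM (median 12.96) at 8 weeks to 14.2 to 204 CPM (median 26.9) at 24 weeks. Again 6 of 8 livers were above all livers of 8 weeks, and replicates 2 and 3 were the highest, at 137 and 204 CPM. Both calls rested on few livers. Without replicate 3 of 24 weeks the edgeR adjusted P was 0.057 for both genes and the log2 fold changes of Ighm and Igkc were 1.27 and 1.61. Without replicate 1 of 8 weeks it was 0.0628 for both, and without replicate 2 of 24 weeks it was 0.0714 for Igkc and 0.0309 for Ighm. Fitted on the 2 semaglutide groups alone it was 0.0767 for both, and without the second-series libraries it was 0.00205 for both. Over all alternatives run, the adjusted P of either gene ran from 3.61e-05 with DESeq2 to 0.0767.

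Other antibody genes leaned the same way without passing the threshold in the main fit. All 11 immunoglobulin constant genes tested, which include Ighm and Igkc, had a positive log2 fold change, with a median of 1.67. Of these 8 had an unadjusted P under 0.05, as did 5 of 8 variable segments (8 of 8 positive, median 1.74) and 0 of 4 T cell receptor constant genes. With the length slope it was 4 of 11 constant genes, with a median of 1.24, and 5 of 8 variable segments, with a median of 2.03. Sequences of constant genes resemble each other, and antibody segments are cut and joined in the cell, so how reads were shared out among them is uncertain. Without replicate 3 of 24 weeks the median of the constant genes was 1.27, with 7 of 11 at an unadjusted P under 0.05, and that of the variable segments was 0.92, with 1 of the 7 then tested. The heavy chain genes Ighg2c and Ighg2b had log2 fold changes of 2.57 (adjusted P = 0.105) and 1.92 (0.105), and Igkv3-2, a kappa variable segment, had 3.38 (0.0532). Without replicate 3 of 24 weeks the fold change of Ighg2c was 1.37 and that of Igkv3-2 was 2.06. Over the 23 livers of all semaglutide times, Igkc was the gene most like Ighm (Pearson r of log2 CPM 0.95), followed by Igkv3-2 (0.89) and Jchain (0.87). The genes most like Igkc after Ighm were Ighg2c (0.91) and Jchain (0.88). Points of these correlations share library depth and composition.

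Genes that mark the cells making antibodies did not pass the threshold. Jchain, which joins secreted antibody units, was at 0.98 to 2.99 CPM (median 1.92) at 8 weeks and 1.46 to 22.4 CPM (median 2.84) at 24 weeks. Its log2 fold change was 1.55 (adjusted P = 0.105), and 3 of 8 livers exceeded all those of 8 weeks. Without replicate 3 of 24 weeks it was 0.71. Ms4a1, the B cell surface protein CD20, was at 0.07 to 0.76 CPM and then 0.12 to 1.47 CPM, with a log2 fold change of 1.204 (adjusted P = 0.106). Cd79b, a part of the B cell receptor, had 0.85 (0.116), which was 0.22 with the length slope and 0.55 without replicate 2 of 24 weeks. Of the 19 genes tested on the B cell and plasma cell list, 2 rose (Ighm and Igkc). At an unadjusted P under 0.05, 11 were higher, against 14.1% of all genes. The list median was 0.85 against 0.00 over all genes. The summed level of the 20 listed markers was 205 to 285 CPM at 8 weeks and 194 to 909 CPM at 24 weeks. Its median was 245 and then 255 CPM with semaglutide, and 212 and then 292 CPM with vehicle. All immunoglobulin genes together summed to 30.7 to 68.8 CPM at 8 weeks of semaglutide, so most of the marker sum at that time came from other genes. Of 16 T cell markers 0 had an unadjusted P under 0.05, and their median log2 fold change was 0.02.

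The rise of antibody genes was not shown to be particular to the drug. Over the same span vehicle livers had log2 fold changes of 0.91 for Ighm (adjusted P = 0.305) and 1.09 for Igkc (0.212). The difference between semaglutide and vehicle was 1.25 ± 0.54 for Ighm and 1.12 ± 0.56 for Igkc (edgeR adjusted P = 0.967 for both). In vehicle livers Ighm went from 10.9 to 70.5 CPM at 8 weeks to 26.7 to 105 CPM at 24 weeks, which overlap. With chow reversal the log2 fold changes were smaller, at 0.22 for Ighm and 0.31 for Igkc. The difference between semaglutide and chow reversal was 1.94 ± 0.55 for Ighm and 1.91 ± 0.57 for Igkc. It missed the threshold as well (edgeR adjusted P = 0.0877 for both).

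**Figure D2:**
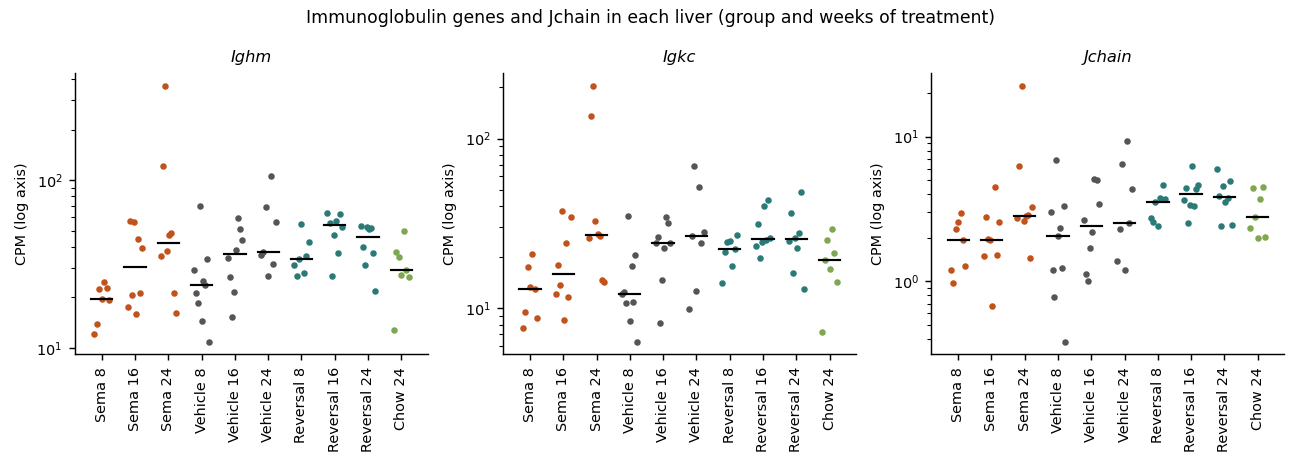
CPM of Ighm, Igkc and Jchain on a log axis in every liver of the 10 groups, with points for livers and lines for group medians. In the 24-week semaglutide group replicates 2 and 3 stand above the rest, and the medians of Ighm and Igkc go from 19.7 to 42.3 CPM and from 12.96 to 26.9 CPM between 8 and 24 weeks.

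No gene of the fibrosis lists passed the threshold. Of 20 collagens tested, 0 rose and 0 fell, 0 had an unadjusted P under 0.05 in either direction, and the median log2 fold change was -0.02. For 16 of the 20 the interval excluded a 2-fold change either way, a share near the 81.3% of all genes. Col1a1, the main fibrillar collagen of scar, was at 23.1 to 48.98 CPM (median 25.4) at 8 weeks and 11.1 to 58.4 CPM (median 37.8) at 24 weeks. The groups overlapped, with 2 of 8 livers above and 2 below the range of 8 weeks. Its log2 fold change was 0.19, with an interval of -0.46 to 0.83, and it was 0.42 with the length slope. Col3a1, the second fibrillar collagen, was at 44.5 to 95.1 CPM and then 15.9 to 74.8 CPM, with a log2 fold change of -0.25 (-0.79 to 0.28) that turned to 0.11 with the length slope in the fit. Both intervals fall within a 2-fold change, so that changes below 2-fold in size were not excluded. In vehicle livers, where Col1a1 was at 57.9 to 129 CPM at 8 weeks and 62.4 to 140 CPM at 24 weeks, its log2 fold change was 0.18, and the difference between treatments was 0.01 ± 0.45 (edgeR adjusted P = 0.998).

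Modulators of matrix turnover overlapped between the groups. Acta2, the smooth muscle actin of activated stellate cells, had a log2 fold change of 0.14 (interval -0.40 to 0.68) and was at 1.64 to 5.87 CPM and then 2.41 to 7.84 CPM. Its sign rested on replicate 4 of 24 weeks, without which it was -0.064. Timp1 and Timp2, inhibitors of the proteases that cut collagen, had 0.52 (-0.26 to 1.31) and -0.22 (-0.65 to 0.21). For Timp1 the interval reaches past 2-fold, so that a doubling was not excluded, and its fold change was 0.18 with the length slope. Mmp13, a collagenase, was the 1 gene of 28 on the matrix remodelling list with an unadjusted P under 0.05, at 0.56 to 2.02 CPM (median 1.11) and then 0.12 to 1.31 CPM (median 0.50). In 5 of 8 livers it was below all livers of 8 weeks, and its log2 fold change was -0.93 ± 0.42 (edgeR adjusted P = 0.151). Of 18 stellate cell activation genes tested, 2 had a lower level at an unadjusted P under 0.05, near the 11.4% of all genes. With the length slope 0 did. Among the 2 was the receptor gene Tgfbr1 at -0.39 (adjusted P = 0.105), which was -0.13 with the length slope.

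**Figure D3:**
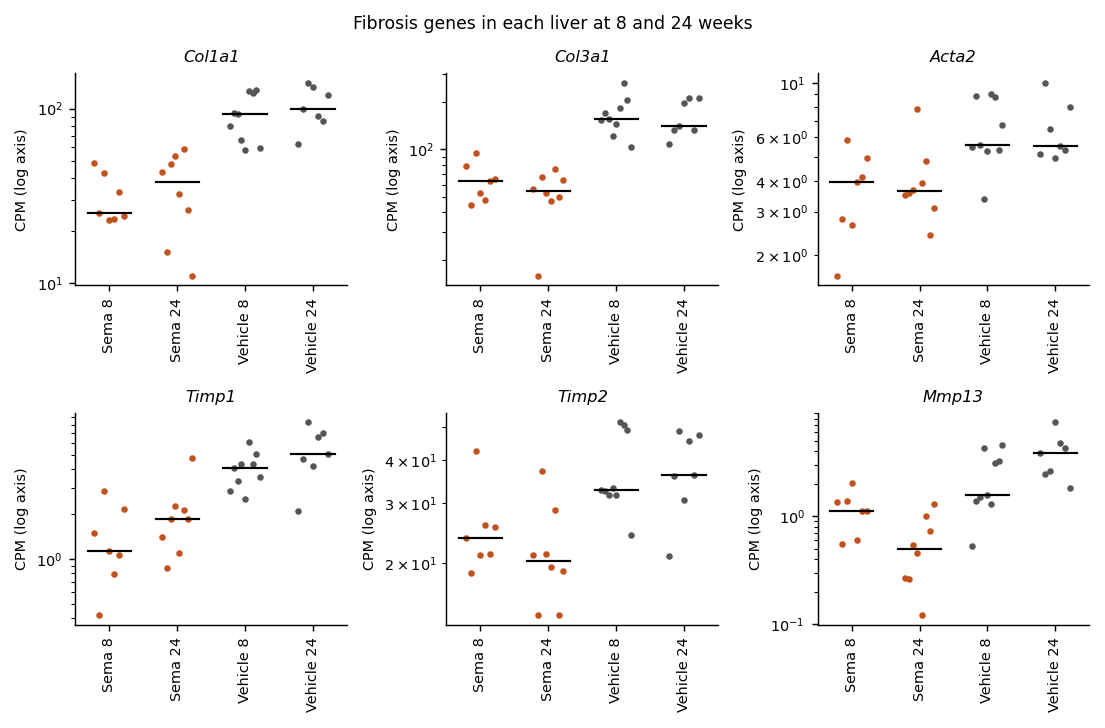
CPM of Col1a1, Col3a1, Acta2, Timp1, Timp2 and Mmp13 in each liver (points) of the semaglutide and vehicle groups at 8 and 24 weeks, with lines for medians. The 2 semaglutide groups overlap in all 6 genes, and Col1a1 spans 23.1 to 48.98 CPM at 8 weeks and 11.1 to 58.4 CPM at 24 weeks.

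Medians of inflammatory lists lay near 0 with semaglutide and above 0 with vehicle. The median log2 fold change of 23 monocyte recruitment genes was -0.04 with semaglutide, where 0 were higher and 2 lower at an unadjusted P under 0.05, and 0.51 with vehicle, where 9 were higher and 0 lower. Over all genes the vehicle shares were 6.93% higher and 4.7% lower. For 10 genes of MHC class II antigen presentation the medians were -0.01 and 0.61, with 1 and 6 genes higher. For 13 genes of lipid-associated macrophages they were -0.09 and 0.39, with 0 and 4 higher. For 28 interferon-stimulated genes they were -0.11 and 0.39, with 1 and 14 higher, and 5 of these 28 rose with vehicle at the adjusted threshold. The interval excluded a 2-fold change in all 28 under semaglutide, against 81.3% of all genes. With chow reversal the medians of these lists, in the same order, were -0.16, -0.52, 0.02 and -0.09. There 6 of the 10 MHC class II genes were lower at an unadjusted P under 0.05. A median without a clear rise was thus not particular to semaglutide. In the test of the difference between semaglutide and vehicle, 2.51% of all genes were lower with semaglutide at an unadjusted P under 0.05. This compares with 8 of 28 interferon-stimulated, 5 of 23 monocyte recruitment and 4 of 10 MHC class II genes. These counts were 9, 5 and 5 with the length slope in the fit.

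Members of these lists with the smallest P in semaglutide livers went in both directions. Gpnmb, a marker of lipid-laden macrophages, was at 17.1 to 172 CPM (median 30.97) and then 8.43 to 48.4 CPM (median 24.5), and its value of 172 CPM came from replicate 3 of 8 weeks. Its log2 fold change was -1.08 (adjusted P = 0.115), and it was -0.43 without that liver. Mmp12, a macrophage protease, had -0.70 (0.222), and -0.34 without the same liver. H2-Oa, which tunes the loading of MHC class II molecules, was higher, with a log2 fold change of 1.35 (adjusted P = 0.105) and 5 of 8 livers above all those of 8 weeks, and it was 0.52 with the length slope. On the inflammation signalling list, 3 of 21 genes were lower at an unadjusted P under 0.05, near the 11.4% of all genes, and 0 were higher. The median of that list was -0.01, and with the length slope 0 of the 21 were lower at that P. Among the 3 was Tnfrsf1b, a receptor for tumor necrosis factor (-0.37, 0.105, and -0.21 with the slope). Of 10 markers of resident Kupffer cells 0 passed the adjusted threshold, and 4 were higher and 0 lower at an unadjusted P under 0.05, against 14.1% and 11.4% of all genes. The list median was 0.34, and with the length slope it was 0.24, with 2 higher and 1 lower. Timd4, which binds dying cells, was at 0.98 to 4.15 CPM and then 2.71 to 21.6 CPM (log2 fold change 1.56, adjusted P = 0.105), and Clec4f, a Kupffer cell lectin, was at 89.3 to 165 CPM and then 119 to 299 CPM (0.57, 0.158, and 0.31 with the slope). The fold change of Timd4 was 1.03 without replicate 2 of 24 weeks. Marco, a scavenger receptor, reached 272 CPM in replicate 2 of 24 weeks against 0.37 to 9.46 CPM at 8 weeks, and 3 of the 8 livers exceeded that range. Its log2 fold change was 3.41 (adjusted P = 0.105) and 0.80 without that liver. With vehicle the Kupffer cell median was 0.17.

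The difference between the semaglutide course and the vehicle course passed the threshold in 9 genes, all lower with semaglutide (0.0604% of genes tested). In each of them vehicle livers rose between 8 and 24 weeks while the semaglutide interval included 0. The 6 with the largest differences follow the rule for named genes, and Oasl1, Ndrg1 and Nqo1 were added after their values were seen. In 7 of the 9 all livers of 24 weeks of semaglutide lay below all vehicle livers of the same time, the exceptions being Oasl1 and Nqo1. The genes were chosen by a test that used these same livers, so this separation is no further support.

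Maoa encodes monoamine oxidase A, which breaks down serotonin and related amines. With semaglutide it was at 6.75 to 9.75 CPM (median 8.69) at 8 weeks and 5.68 to 10.9 CPM (median 8.75) at 24 weeks, which overlap, with a log2 fold change of 0.05 ± 0.24. With vehicle it went from 8.15 to 11.3 CPM to 14.1 to 126 CPM, and the groups did not overlap. The difference was -2.44 ± 0.33 (edgeR adjusted P = 2.15e-06).

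Rsad2 and Oasl1 are antiviral genes induced by interferon. Rsad2 was at 5.53 to 10.1 CPM and then 4.27 to 8.19 CPM with semaglutide, and at 5.97 to 13.9 CPM and then 12.6 to 67.3 CPM with vehicle. Its difference was -2.08 ± 0.34 (edgeR adjusted P = 0.000322). Oasl1 was at 7.02 to 10.0 CPM and then 6.96 to 14.1 CPM with semaglutide, and its difference was -1.59 ± 0.32 (0.0162). Il1f9, a cytokine of the interleukin-1 family (IL-36γ), stayed at or below 0.60 CPM in all 15 semaglutide livers. With vehicle it was at most 0.73 CPM at 8 weeks and 1.45 to 24.6 CPM at 24 weeks, for a difference of -4.07 ± 0.71 (0.00109). The remaining 5 genes were Elovl7, which lengthens fatty acids (-2.58, adjusted P = 0.0457), H2-T-ps, a pseudogene of the major histocompatibility complex (-2.37, 0.0065), Ugt1a9, which conjugates drugs and bilirubin-like compounds (-2.03, 0.017), and the stress genes Nqo1 (-1.35, 0.0471) and Ndrg1 (-1.30, 0.0471). Ugt1a9 shares exons with its neighbouring family members and H2-T-ps resembles other genes of its locus, so reads of either could have been assigned elsewhere. Maoa, Rsad2 and Il1f9 passed the threshold under all 42 alternatives run for this comparison, and Nqo1, Ndrg1 and Elovl7 under 13, 17 and 20 of them.

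**Figure D4:**
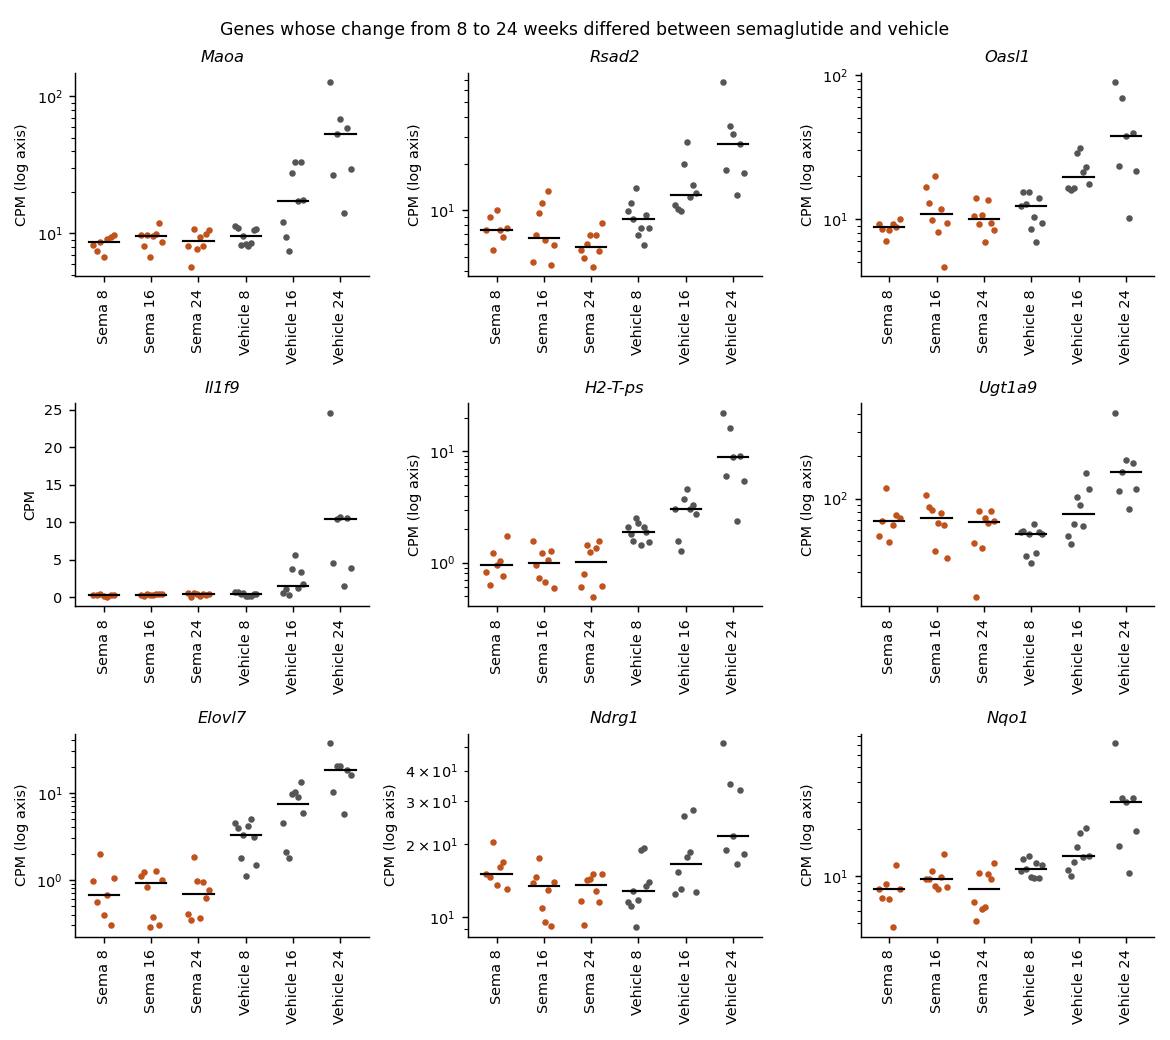
CPM of the 9 genes whose change differed between semaglutide and vehicle, in each liver at 8, 16 and 24 weeks, with lines for medians (log axes, linear for Il1f9). The semaglutide livers of 8 and 24 weeks overlap, with Maoa medians of 8.69 and 8.75 CPM, and the vehicle livers of 24 weeks spread upward.

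Genes chosen in vehicle livers gave a wider view of the same span. Of the 109 genes that rose with vehicle between 8 and 24 weeks, 0 passed the threshold with semaglutide, 87 had a positive log2 fold change, 29 were higher at an unadjusted P under 0.05 and 0 lower, and the median was 0.28. Over all genes 14.1% were higher and 11.4% lower. With the length slope in the fit that median was 0.10, with 8 of the 109 higher, against 272 of all 14904 genes. Their choice used vehicle livers only. Cbr3, Gsta1 and Gstm2, of the xenobiotic and injury lists, rose with vehicle and had positive values with semaglutide too. Cbr3, a carbonyl reductase, was at 0.66 to 2.19 CPM and then 1.83 to 7.72 CPM with semaglutide (log2 fold change 1.63, adjusted P = 0.105), with 6 of 8 livers above all those of 8 weeks, and had a vehicle log2 fold change of 4.24 (adjusted P = 4.29e-12). Gsta1, a glutathione transferase, had 1.32 (0.105) with semaglutide and 2.94 (1.51e-06) with vehicle. Gstm2, of the same enzyme class, had 0.69 (0.105) and 0.88 (0.0107). The differences between treatments were -2.61 for Cbr3 (adjusted P = 0.102), -1.62 for Gsta1 (0.893) and -0.19 for Gstm2 (0.967).

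Of 20 lipogenesis genes 0 passed the adjusted threshold. At an unadjusted P under 0.05, 3 of the 20 were higher, a share near the 14.1% of all genes, and the median was 0.17. With the length slope the median was 0.41 and 7 were higher, against 272 of all 14904 genes. With vehicle the median was -0.14. Acacb, the mitochondrial acetyl-CoA carboxylase, was at 26.8 to 161 CPM (median 76.9) and then 46.8 to 387 CPM (median 142), a log2 fold change of 0.84 (adjusted P = 0.116) that was 0.49 without replicate 3 of 24 weeks. Thrsp, an inducer of lipogenesis, had 0.83 (0.166), and all 8 livers of 24 weeks lay within the range of 8 weeks. Of 23 genes of cholesterol synthesis and uptake, 5 were higher and 0 passed the adjusted threshold, with a median of 0.17 against -0.34 with vehicle. In the test of the difference between treatments 6 of the 23 were higher with semaglutide at an unadjusted P under 0.05, against 307 of all 14904 genes. Of the 23, 0 passed the adjusted threshold there. With the length slope 6 of the 23 were higher in semaglutide livers at an unadjusted P under 0.05, with a median of 0.28. In the difference between treatments 10 of the 23 were then higher, with a median of 0.53, against 282 of all 14904 genes. Fdps, an enzyme of the mevalonate pathway, was at 43.6 to 167 CPM and then 79.3 to 283 CPM (log2 fold change 0.67, adjusted P = 0.115). Mogat1, which makes diacylglycerol, was at 1.27 to 2.48 CPM and then 1.84 to 4.66 CPM, with 6 of 8 livers above all those of 8 weeks (0.77, 0.105).

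Fatty acid oxidation genes had a median of -0.02 over 26 genes. Intervals lay within 2-fold for 24 of them, against 81.3% of all genes. At an unadjusted P under 0.05, 3 were higher, against 14.1% of all genes. Acads, a short-chain acyl-CoA dehydrogenase, had a log2 fold change of 0.46 (adjusted P = 0.105) that was 0.08 with the length slope. Crot, which moves acyl groups out of peroxisomes and was chosen for its small P after values were seen, was at 482 to 783 CPM (median 598) and then 242 to 505 CPM (median 357). In 7 of 8 livers it was below all livers of 8 weeks, and its log2 fold change was -0.74 ± 0.16 (edgeR adjusted P = 0.0507). It fell with vehicle as well, by 0.58 on the log2 scale (adjusted P = 0.048). Bile acid genes had a median of -0.01 over 22 genes, with 4 lower at an unadjusted P under 0.05, against 11.4% of all genes. With the length slope 0 were lower. Among the 4 was the exporter Abcc2 at -0.53 (adjusted P = 0.124), which was -0.01 with the length slope. Irs2, which relays the insulin signal, was at 13.8 to 23.2 CPM and then 8.30 to 24.8 CPM (-0.54, 0.138), and was -0.12 with the length slope. Xenobiotic genes had a median of 0.07 in 25 genes with either treatment. Of the 25, 8 rose with vehicle and 0 with semaglutide, against 109 and 2 of all 14904 genes. With vehicle the list went both ways, with 11 higher and 7 lower at an unadjusted P under 0.05.

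**Figure D5:**
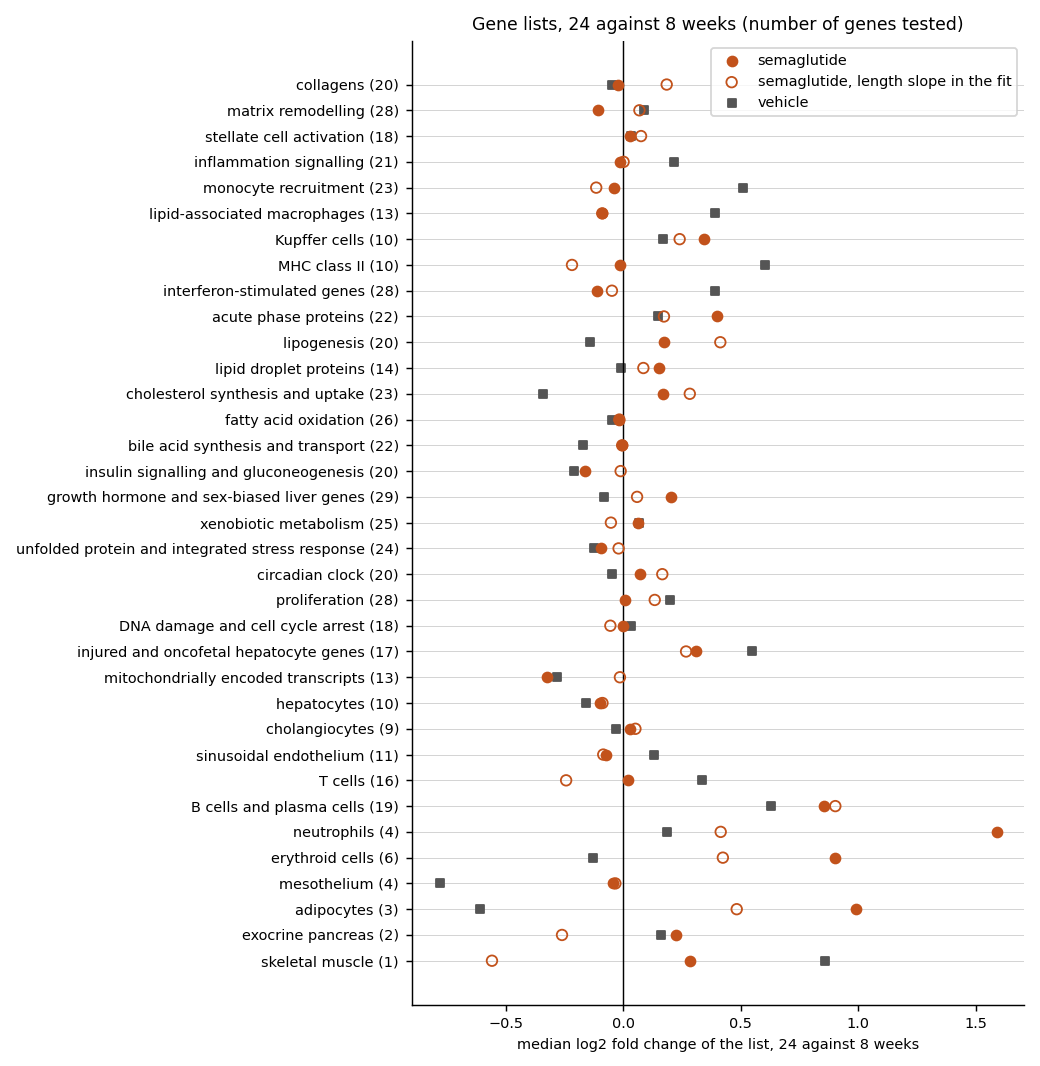
Median log2 fold change, 24 against 8 weeks, of 35 gene lists, with filled circles for semaglutide, open circles for semaglutide with the length slope in the fit and squares for vehicle. For semaglutide 26 of the 35 medians lie within 0.25 of 0, and B cells and plasma cells keep their place with the length slope, at 0.85 and 0.90.

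Several lists had medians far from 0 that came closer to it with the length slope in the fit. Of 22 acute phase genes, 8 were higher at an unadjusted P under 0.05, against 14.1% of all genes, and 0 passed the adjusted threshold. Their median was 0.40. With the length slope 1 was higher and the median was 0.17. Saa1 and Saa2 encode serum amyloid A, which the liver releases in inflammation. Saa1 was at 94.0 to 171 CPM at 8 weeks, whereas at 24 weeks replicates 2 and 8 reached 1670 and 2838 CPM and the median was 164, a log2 fold change of 2.34 (adjusted P = 0.105) that was 1.58 with the length slope and 1.49 without replicate 8. Saa2 had 2.03 (0.105), and Orm1, an acid glycoprotein, had 1.07 (0.105) and was 0.39 with the length slope. The same 2 livers had the lowest length slopes. Neutrophil genes had a median of 1.59 over the 4 tested, which was 0.42 with the length slope, and S100a8 was at 0.33 to 1.57 CPM and then 0.37 to 8.56 CPM, a log2 fold change of 1.71 that was 0.54 with the length slope and 1.01 without replicate 2 of 24 weeks. Hemoglobin genes, which mark red cells left in the tissue, gave a list median of 0.90 over 6 genes and 0.42 with the length slope, with Hba-a2 at 1.09 (adjusted P = 0.107) and 0.58 in the 2 fits. The summed level of the erythroid markers was 293 to 481 CPM and then 314 to 1312 CPM. Transcripts of the mitochondrial genome had a median of -0.32 over 13 genes, -0.28 with vehicle and -0.01 with the length slope. Among them the short mt-Nd3 had 0.78 and the long mt-Nd5 had -0.72, and these were 0.17 and 0.00 with the slope.

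Hepatocyte markers as a list had a median of -0.10. Apob, the large structural protein of very low density lipoprotein, was at 4327 to 5183 CPM and then 2743 to 4259 CPM, so that all 8 livers of 24 weeks lay below all 7 of 8 weeks. Its log2 fold change was -0.46 (adjusted P = 0.105), and it was -0.11 with the length slope. Apoa1, a short transcript that encodes the main protein of high density lipoprotein, had 0.58 (0.114) and -0.00 with the slope. Cux2, a transcription factor found more in female than in male mouse liver, was at 0.07 to 1.37 CPM and then 0.35 to 8.30 CPM, with 3 of 8 livers above all those of 8 weeks. Its log2 fold change was 2.38 ± 0.52 (edgeR adjusted P = 0.0512), and it was 2.45 with the length slope and 0.35 with vehicle. The sex-biased and growth hormone list had 4 genes higher and 2 lower of 29 at an unadjusted P under 0.05. In the main fit these shares were at or below those of all genes (14.1% and 11.4%). With the length slope 5 of the 29 were higher and 0 lower, against 272 and 138 of all 14904 genes. The list median was 0.20, and 0.06 with the length slope. Stat5b, which relays growth hormone, had -0.41 (0.105), which was -0.17 with the slope. Cell division genes had a median of 0.01 over 28, and DNA damage genes -0.00 over 18, although Cdkn2a, an inhibitor of the cell cycle linked to senescence, was at 0 to 0.56 CPM and then 0.17 to 1.22 CPM (log2 fold change 1.77, adjusted P = 0.107).

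The disease program was read from genes that the diet itself moved, chosen in vehicle and chow livers of 24 weeks, which are not part of the semaglutide comparison. Of 3849 genes that the diet raised, 0 passed the threshold between 8 and 24 weeks of semaglutide. Their median log2 fold change was 0.02, 8.31% were higher and 4.39% lower at an unadjusted P under 0.05, and the interval lay within 2-fold for 75.2%. Of the 3272 genes that the diet lowered, 0 passed and the median was -0.03. Of these 10.2% were higher and 14.1% lower, and 91.3% had an interval within 2-fold. Over all genes 14.1% were higher, 11.4% were lower and 81.3% had an interval within 2-fold. The share within 2-fold was thus below that of all genes for the raised genes and above it for the lowered ones. With the length slope 89 of the 3849 raised genes were higher and 12 lower at an unadjusted P under 0.05. Of the 3272 lowered genes 42 were then higher and 59 lower, and of all 14904 genes 272 and 138. The 2467 genes raised more than 2-fold by diet had a median of 0.04, or 0.07 with the length slope.

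The middle time was compared with both ends. Semaglutide at 16 against 8 weeks gave 210 genes higher and 27 lower, and at 24 against 16 weeks 0 higher and 10 lower (447 genes at an unadjusted P under 0.05). Of the 8 livers of 16 weeks, 2 came from the second series of libraries, and without that series 0 genes passed in either comparison. Muscle transcripts were high in 1 of these livers. Flnc, filamin C of muscle, was at 33.02 CPM in 1 second-series liver and at most 0.34 CPM in the other 7 livers of 16 weeks, and Tnnt1, a muscle troponin, was at 60.006 CPM against at most 2.12 CPM. Without the second series the log2 fold change of Flnc at 16 against 8 weeks turned from 4.32 to -0.63. At 24 weeks Flnc was at most 0.54 CPM.

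Chow reversal over the same span gave 6 genes higher and 1 lower, and vehicle gave 109 higher and 9 lower. The difference between the semaglutide course and the chow reversal course passed the threshold in 3 genes (0.0201%), named after their values were seen. Hamp2, a relative of the iron hormone hepcidin, was at 16.9 to 93.9 CPM and then 4.02 to 155 CPM with semaglutide, a log2 fold change of 0.79, and had -2.37 with chow reversal, a difference of 3.15 (adjusted P = 0.0478). Zfp719, a zinc finger gene, had -0.39 and 0.90, a difference of -1.29 (0.0349), and Ddx52, an RNA helicase, had -0.22 and 0.30, a difference of -0.53 (0.0375). With the length slope in the fit 0 genes passed in this comparison.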

How the data were processed

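Estimated counts per gene were deposited by the authors, who aligned reads of the stranded libraries to GRCm38 with STAR 2.7.3a and quantified them with Salmon 1.2.0 after FastQC 0.11.9 and Picard. The strand setting of the counting is not given in the sources used here. Of the deposited values 7.55% were fractional, and counts were rounded. Symbols and coordinates came from a GENCODE annotation of GRCm38, which named 55227 of 55487 identifiers. The other 260 held 0.0155% of the counts. A level per liver (CPM) is the count scaled to the library size with TMM, and is not corrected for length, so levels of different genes are not compared.

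Tests used R 4.3.3, edgeR 4.0.16 and limma 3.58.1. Genes passed edgeR's filter by group, and 1 quasi-likelihood fit held 77 libraries in 10 groups (67 residual degrees of freedom, common dispersion 0.066). Each comparison was a contrast with Benjamini-Hochberg adjustment over 14904 genes. Standard errors came from the F statistic, and intervals are 95% t intervals. Differences between treatments were interaction contrasts. Genes that share libraries between comparisons were not correlated. The fit was tested on simulated data.

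The members and gene lists (35 lists, 611 genes, 568 tested) were chosen with earlier results of these data known. Named genes were those past the threshold, up to 3 members of each list with the smallest P, genes the study names, and the 6 largest differences from vehicle. Ighg2b, Jchain, Ms4a1, Cd79b, Igkv3-2, Ighv1-53, Crot, Oasl1, Ndrg1, Nqo1, Zfp719, Ddx52, Hamp2, Flnc and Tnnt1 were named, and Clec4f, Mt2 and Hp added, after their values were seen. Some list members are counted but not reported here by name.

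Alternatives were DESeq2 1.42.0, RLE factors, library totals, no filter, only the groups compared, no second-series libraries, the library set as a block, no vehicle library out of numbering order, and each library left out. The length slope, without replicates 2 and 8 of 24 weeks, and DESeq2 with the slope were added after seeing the data.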

Additional observations from a re-analysis of the deposited data

Results flagged for a closer look

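Of 142 checks of 1 measure in 1 semaglutide group, 29 had 1 liver whose gap to the nearest other liver was large for the range of its group by Dixon's 95% limits. Chance flags about 1 in 20 groups, and livers of 1 group share their depth and composition across genes. In the 24-week semaglutide group, replicate 3 was highest for Ighm (363 CPM), Ighg2c (20.9), Jchain (22.4), Igkv3-2 (24.6), Ighv1-53 (7.6), Acacb (387), Fdps (283) and Elovl7 (1.81). Replicate 2 of 24 weeks was highest for Marco (272 CPM), Timd4 (21.6), Tff3 (12.3), S100a8 (8.56), Cd79b (5.85), Mt2 (463) and Hp (12400). Replicate 8 of 24 weeks, the second-series library, was highest for Saa2 (1610 CPM), Timp1 (4.79) and mt-Nd3 (403) and in its share of counts in predicted genes (4.57%). Replicate 4 of 24 weeks was highest for Acta2 (7.84 CPM) and Clec4f (299), and replicate 5 for Clock (25.3). In the 8-week semaglutide group, replicate 3 was highest for Timp2 (42.5 CPM), Mmp12 (52.5), Gpnmb (172) and Ugt1a9 (119), replicate 6 for Cux2 (1.37) and S100a8 (1.57), and replicate 4 for Cdkn2a (0.562).

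The change between 8 and 24 weeks differed between semaglutide and vehicle by edgeR's interaction test in 9 genes, with log2 differences of -2.44 for Maoa, -2.08 for Rsad2, -4.07 for Il1f9, -2.37 for H2-T-ps, -1.59 for Oasl1, -2.03 for Ugt1a9, -2.58 for Elovl7, -1.30 for Ndrg1 and -1.35 for Nqo1. It differed between semaglutide and chow reversal in 3 genes, by -1.29 for Zfp719, -0.53 for Ddx52 and 3.15 for Hamp2.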

How the results depend on the processing

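The count of 2 genes between 8 and 24 weeks of semaglutide was 6 with RLE factors, 0 with only the groups compared, 5 without the second-series libraries, 4 each with the library set as a block, with the length slope and without replicates 2 and 8 of 24 weeks, 569 with DESeq2 and 24 with DESeq2 and the slope. With 1 liver left out it ran from 0 (without replicate 1 of 8 weeks or replicate 3 of 24 weeks) to 10 (without replicate 1 of 24 weeks), and at an unadjusted P under 0.05 from 2328 (without replicate 2 of 24 weeks) to 4409, against 3805. That unadjusted count was 410 with the length slope, 1837 without replicates 2 and 8 and 650 with DESeq2 and the slope. In 4 classes of length from the shortest, DESeq2 called 299, 84, 40 and 11 genes higher and 1, 5, 35 and 94 lower. The count of genes with an interval within 2-fold ran from 11676 to 12301 with 1 liver left out.

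At 16 against 8 weeks, 237 genes became 120 with library totals, 583 with DESeq2 and 0 with only the groups compared, without the second series, with the block or with the slope. At 24 against 16 weeks, 10 became 83 without the filter, 2 with the slope, 4 with DESeq2 and 0 with only the groups compared, without the second series or with the block. The 118 genes of vehicle became 229 with only the groups compared. The 7 of chow reversal became 11 without the filter, 32 with DESeq2 and 0 with only the groups compared or the block. The 9 genes that differed from vehicle became 4 with only the groups compared, 3 with the block, 5 without replicates 2 and 8, 16 with DESeq2 and 31 with DESeq2 and the slope, and 3 (without replicate 1 of vehicle at 24 weeks) to 16 (without replicate 5) with 1 liver left out. The 3 that differed from chow reversal became 0 with library totals, only the groups compared or the slope, 5 without the second series and 317 with DESeq2.

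Signs turned for Col3a1 (0.11 with the slope in edgeR and 0.11 in DESeq2, against -0.25), Apoa1 (-0.0043 and -0.0028, against 0.58), mt-Nd5 (0.0021 and 0.0031, against -0.72), Acta2 (-0.064 without replicate 4 of 24 weeks and up to 0.28 with another liver left out, against 0.14) and Flnc at 16 weeks (-0.63 without the second series, against 4.32). The causes were not tested. No paired analysis was possible because no mouse was sampled at both times, and the library set entered as a block only as given above. Counting error is large for genes such as Cdkn2a, at or below 1.22 CPM in all 15 livers.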
